A study of Bubalus bubalis with 36 samples.

Results

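Back subcutaneous fat (BSAT) was compared with sternal subcutaneous fat (SSAT) for every microRNA (miRNA) feature counted in 6 water buffaloes (Bubalus bubalis). Each animal gave 1 library of either depot, so 12 of the 36 libraries of the series enter the comparison, 6 from the back and 6 from the sternum, paired by animal. The other 24 libraries came from inguinal subcutaneous, omental, pericardial and perirenal fat of the same animals and served to estimate the spread. At slaughter all were 20 months old; fattening had begun at 15 months, and weaning had been at 3 months. The labels give no treatment, and both groups came from the same animals. The whole tissue was extracted, so that fewer cells of a type and less RNA per cell cannot be told apart in any value below.

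miRNAs are short RNAs that pair with messenger RNAs and lower their translation or stability. Some lie between the HOX genes, whose expression records the position of a tissue along the body axis, and are transcribed with them. miR-10a and miR-10b lie in HOX clusters near genes of the middle of the axis, and miR-196a and miR-196b lie farther towards the genes of the rear. Other miRNAs mark particular cells: miR-451, miR-144 and miR-486 are abundant in red blood cells and their precursors, miR-1, miR-133 and miR-206 in muscle fibres, and miR-223 and miR-142 in white blood cells. Because fat contains vessels, blood and connective tissue, and lies against muscle under the skin, such miRNAs enter fat libraries as well.

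The 6 back libraries held 12287528 to 13432169 counted reads and the 6 sternal libraries 10738131 to 13920998. The back libraries had 892 to 981 features detected, against 867 to 957 in the sternal libraries. Candidate loci, which carry an identifier but no miRNA name, took 23.0% ± 3.26 of the counts in back and 25.4% ± 1.54 in sternal libraries (SD, n = 6 each; exact paired permutation test over 4 library measures, p = 0.0938, adjusted p = 0.375, higher in back in 1 of 6 animals). None of the 4 measures passed, and the smallest p that 6 pairs allow is 0.03125. Of 1682 features, 667 had enough counts to be tested, 389 with miRNA names and 278 candidate loci. miR-143, abundant in fat cells and in smooth muscle, was present in every library, at 22635 to 38710 CPM (counts scaled to a common library size with TMM factors) in back and 19520 to 34527 CPM in sternal fat. The lists held no miRNA that defines fat cells, so the tissue label was checked no further.

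Few miRNAs separated the depots. Of the 667 features, 6 were called (0.9%) at an adjusted p of 0.05 or below in edgeR's quasi-likelihood test with the animal as a block, 4 of them higher (0.6%) and 2 lower (0.3%) in back fat. The higher ones were miR-196a, miR-451, miR-486 and miR-3431, and the lower ones were miR-1247-5p and 1 candidate locus, NC_059159.1_8293. All 6 had the same direction in 6 of 6 animals, as had 41 features (6.15%) in all, 29 of them higher (4.35%) and 12 lower (1.8%) in back. An unadjusted p below 0.05 was reached by 68 features (10.2%), 44 higher (6.6%) and 24 lower (3.6%). In 6 features (0.9%) the CPM of the back and sternal libraries did not overlap, and miR-196a, miR-451, miR-3431 and miR-1247-5p were among them. The precision was limited: for 149 features (22.3%) the 95% interval of the difference lay within a 2-fold change either way, and for the rest a 2-fold difference could not be set aside.

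**Figure D1:**
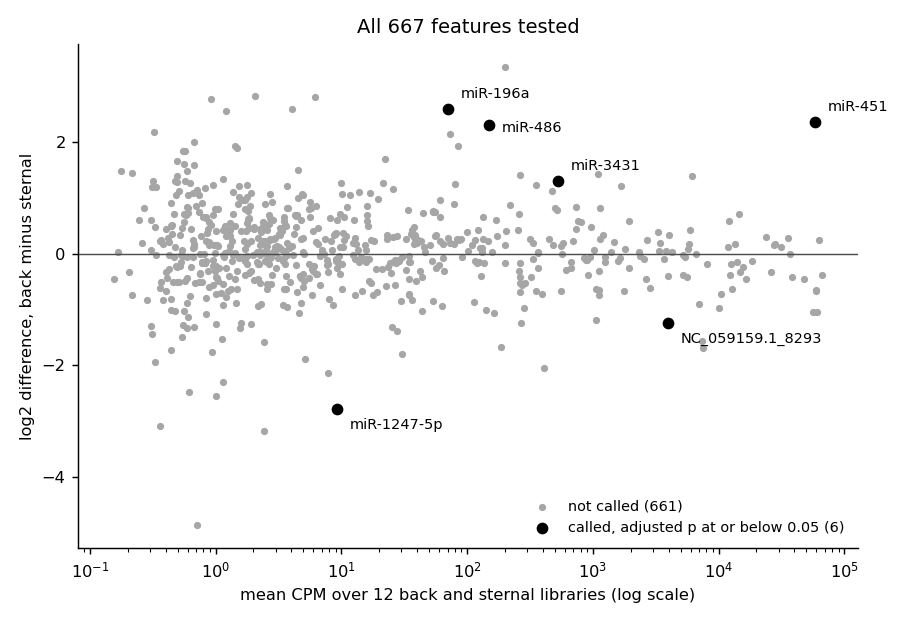
The fitted log2 difference of back minus sternal fat (vertical axis) against the mean CPM of the 12 libraries (horizontal, log scale) for the 667 features tested, with the 6 called features in black and named. The called features span levels from miR-1247-5p, at 2.84 CPM in back and 15.6 CPM in sternal fat, to miR-451, at 97855 CPM in back and 19840 CPM in sternal fat.

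miR-196a, a miRNA of the HOX clusters, was higher in back fat. Its level in the back libraries was 28.4 CPM at the lowest, 134 CPM at the median and 209 CPM at the highest, against 8.96, 18 and 26.2 CPM in the sternal libraries. Every back library was above every sternal one, and the gap within an animal was widest in animal 3 (log2 difference 4.52) and narrowest in animal 6 (1.20). The fitted log2 difference was 2.59 ± 0.65 (SE; adjusted p = 0.0478, edgeR). It passed in 8 of 12 other ways of testing, with adjusted p from 0.00242 to 0.148 across them. The call was lost with RLE scaling, without a filter on low counts, without the animal block and in the 12 libraries with the block. The direction held whichever library was left out, but the call was held in 3 of 18 leave-outs, with log2 differences of 2.21 to 2.84 and adjusted p of 0.0285 to 0.264. It was kept without animal 2, without animal 6 and without back library 6, and was lost on leaving out any other animal or library, animal 4 at the most.

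miR-196b, a close relative of miR-196a that carries most of the counts of this pair, was at 559, 1898 and 4439 CPM (lowest, median, highest) in back fat and at 428, 915 and 3082 CPM in sternal fat. The ranges overlapped, and back was higher in 5 of 6 animals. Its log2 difference was 1.22 ± 0.58 (adjusted p = 0.478, edgeR), and that of the pair summed was 1.17 ± 0.55 (adjusted p = 0.499).

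miR-10a, from the part of the HOX clusters nearer the head end, had the opposite sign. It was at 327, 628 and 835 CPM in back fat and at 706, 1334 and 2449 CPM in sternal fat, lower in back in 6 of 6 animals, with only a small overlap of the ranges. The log2 difference was -1.18 ± 0.32 and did not pass the threshold (adjusted p = 0.0726, edgeR). It passed in 4 of 12 other ways of testing, with adjusted p from 0.00482 to 0.101 across them, and in 5 of 18 leave-outs (without animal 1 or 2, back library 6, or sternal library 1 or 2). Its close relative miR-10b, the most abundant of these miRNAs, averaged 13064 ± 2911 CPM in back and 14799 ± 5165 CPM in sternal fat (SD, n = 6 each). It was higher in back in 3 of 6 animals, and the 95% interval of its log2 difference ran from -0.66 to 0.37, so a 2-fold difference lay outside it. The pair summed, most of it miR-10b, differed by -0.26 ± 0.26 (adjusted p = 0.818, edgeR) and was higher in back in 2 of 6 animals. miR-615, another HOX-cluster miRNA, was near the limit of detection, at 0.719 ± 0.431 CPM in back and 0.772 ± 0.309 CPM in sternal fat.

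Within a library, the balance of these HOX miRNAs does not depend on the scaling. For every 100 reads of miR-10a there were 4.57 to 33.0 reads of miR-196a in back fat, against 0.737 to 3.09 in sternal fat. The ranges did not overlap. For miR-196b the values were 171 to 615 reads in back and 18.5 to 437 reads in sternal fat per 100 of miR-10a, higher in back in 6 of 6 animals. Both ratios follow from levels already given and were not tested.

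Across all 6 depots the 2 fat sites took different places for these miRNAs. Mean miR-196a was 0.728 CPM in pericardial, 7.82 CPM in omental, 18 CPM in sternal, 124 CPM in back, 216 CPM in perirenal and 360 CPM in inguinal fat. The libraries ran from 0.0703 to 1.84 CPM in pericardial, 0.533 to 34.9 CPM in omental, 8.96 to 26.2 CPM in sternal, 28.4 to 209 CPM in back, 139 to 369 CPM in perirenal and 190 to 586 CPM in inguinal fat. Neighbours in this order overlapped, except sternal and back fat, and omental fat overlapped back fat as well through its highest library. Mean miR-10a was 132 CPM in pericardial, 610 CPM in inguinal, 620 CPM in back, 882 CPM in perirenal, 886 CPM in omental and 1493 CPM in sternal fat. Sternal fat thus held the highest mean of miR-10a, while back and inguinal fat differed by less than their SDs of 170 and 174 CPM.

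**Figure D2:**
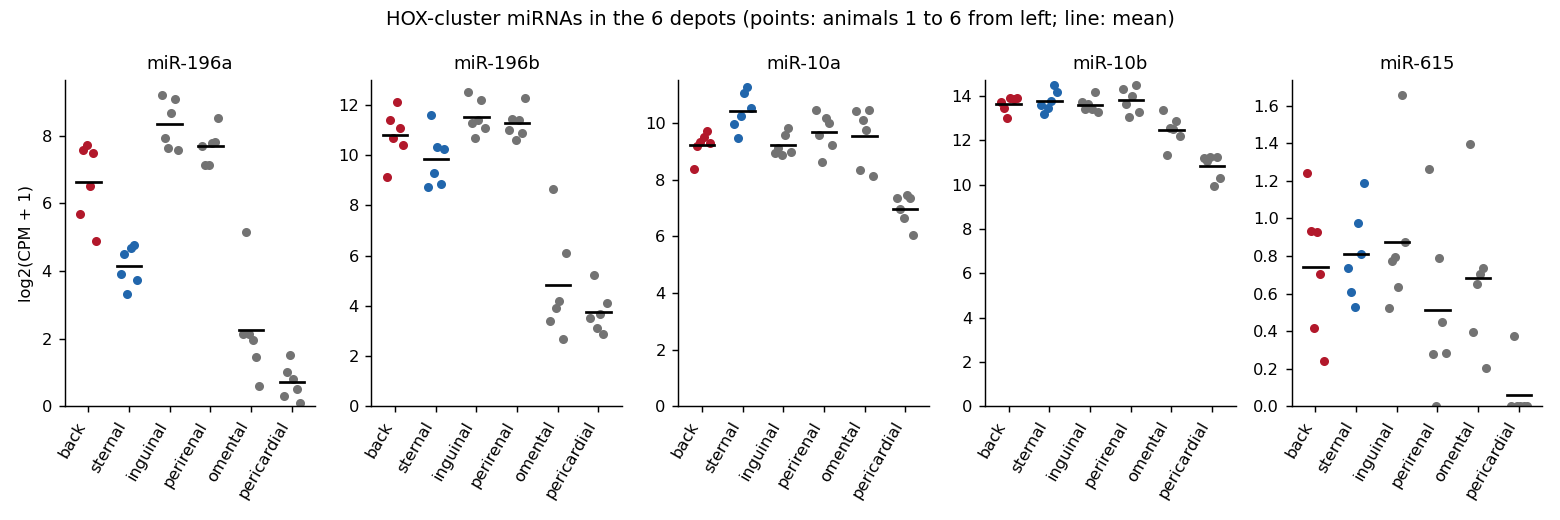
log2(CPM + 1) of the 5 HOX-cluster miRNAs tested (1 panel each) in the 6 depots, with 1 point for each of the 6 animals and a line at the mean. Back fat (red) lies above sternal fat (blue) for miR-196a, without overlap, and mostly below it for miR-10a, while the miR-10b ranges overlap widely.

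Among the called features, a red blood cell miRNA, miR-451, had the smallest adjusted p. miR-451, which is released from its precursor without Dicer and accumulates as red cells mature, stood at 45641, 84398 and 185144 CPM (lowest, median, highest) in back fat, against 8207, 16958 and 34970 CPM in sternal fat. No sternal library reached the lowest back library, although in animal 3 the gap was small (log2 difference 0.38, against 2.12 to 3.84 in the other animals). The fitted log2 difference was 2.36 ± 0.41 (adjusted p = 0.00182, edgeR). miR-451 took 9.13% ± 4.86 of all counts in back libraries and 1.79% ± 1.08 in sternal libraries (SD, n = 6 each).

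miR-486, which is also made in muscle, followed at lower levels: 52.8, 241 and 482 CPM in back and 20.8, 35.1 and 109 CPM in sternal fat. The ranges overlapped, but back was higher in 6 of 6 animals, with a log2 difference of 2.31 ± 0.45 (adjusted p = 0.00386, edgeR). Both miRNAs stayed called on leaving out each animal or library in turn, 18 of 18 times. Among other ways of testing, miR-451 passed in 12 of 13 and miR-486 in 11 of 13. miR-144, made from the same primary transcript as miR-451, was at 12 ± 6.99 CPM in back and 7.71 ± 9.73 CPM in sternal fat (SD, n = 6 each), and its difference of 0.71 ± 0.65 did not pass (adjusted p = 0.796). Of the 6 depots, back fat had the highest and sternal fat the lowest mean of miR-451 and of miR-486.

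Summed over the 3 red cell miRNAs, the level was 45988 to 185650 CPM in back and 8231 to 35036 CPM in sternal libraries. It was higher in back in 6 of 6 animals without overlap. Nearly all of this sum was miR-451, at 45641 to 185144 CPM in back and 8207 to 34970 CPM in sternal fat. The sum thus repeats the miR-451 result and says little about miR-486 and miR-144. Blood carries white cells too. Here and below, the 155 of 667 features to which DESeq2 gave no adjusted p count as not called by it. Of the 7 white blood cell miRNAs tested, 0 were called in edgeR, in DESeq2 or in limma on log2(RPM + 1), and 1 had an unadjusted p below 0.05. That one was miR-223, the miRNA of granulocytes and monocytes, at 14.4, 30.2 and 62.5 CPM in back and 8.75, 14.1 and 27.2 CPM in sternal fat, higher in back in 6 of 6 animals (log2 difference 1.17 ± 0.45, adjusted p = 0.303, edgeR). The median of the 7 was -0.06 beside 0.05 for all features and 0.46 without sternal library 1, and their summed level overlapped, at 1954 to 7189 CPM in back and 1582 to 6721 CPM in sternal fat. miR-126-3p, the miRNA of the vessel lining, was at 24559 CPM in back and 20142 CPM in sternal fat at the median, with a log2 difference of 0.30 ± 0.22 (adjusted p = 0.713). The labels do not give how much blood the pieces held, and its part in the miR-451 and miR-486 differences was not tested.

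**Figure D3:**
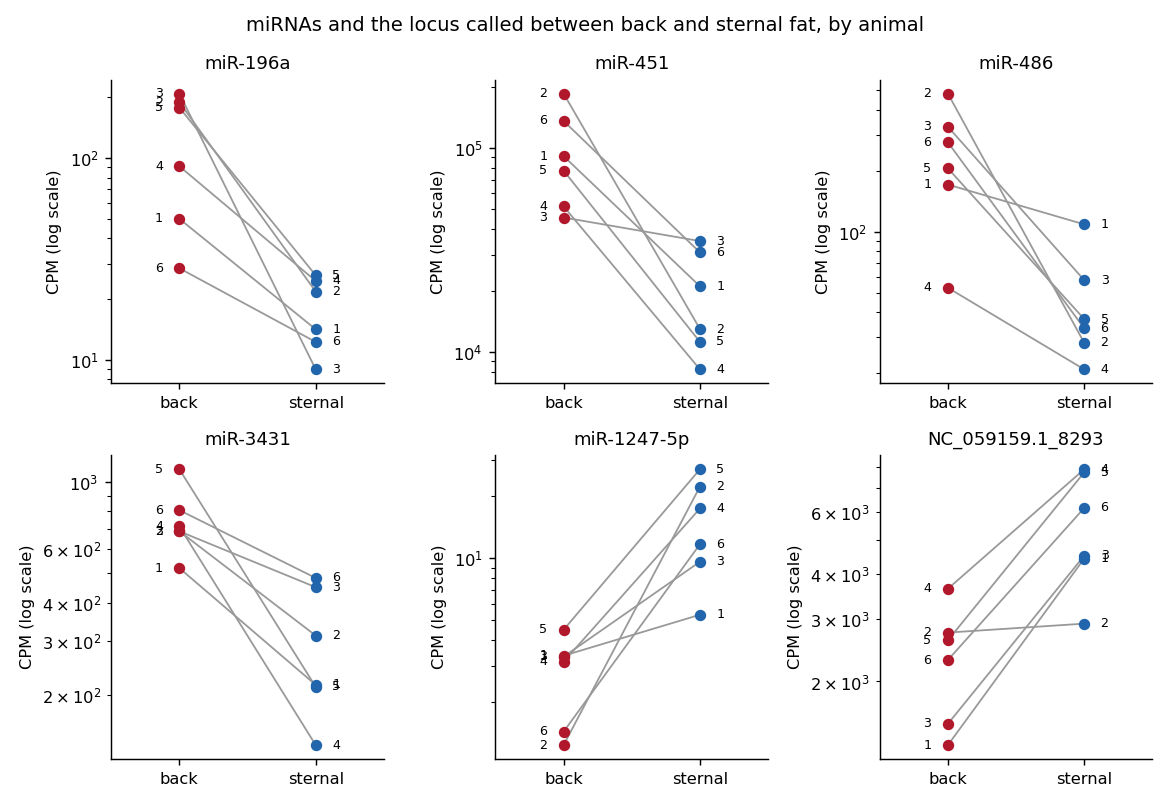
CPM on a log scale of the 6 called features in back (left, red) and sternal fat (right, blue), with a line joining the libraries of each of the 6 animals. All lines run downwards from back to sternal fat for miR-196a, miR-451, miR-486 and miR-3431, and upwards for miR-1247-5p and NC_059159.1_8293.

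One back library stood apart in muscle miRNAs. Summed over the list of muscle miRNAs, it had 2949 CPM (back library 2), whereas the remaining 5 back libraries had 23.6 to 207 CPM and the 6 sternal libraries 35.9 to 58.2 CPM. The same library carried 2228 CPM of miR-206, the miRNA of skeletal muscle, where the back median was 8.69 CPM and the sternal libraries had 1.22 to 25.1 CPM, and 607 CPM of miR-1, where the sternal libraries had 15.7 to 35.3 CPM.

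All 6 muscle miRNAs tested had positive differences with a median of 2.70, and 4 had an unadjusted p below 0.05, but 0 were called in edgeR or limma, and DESeq2 called miR-206 and miR-133a. Without back library 2, the list median was 0.49, and the log2 difference of miR-206 was 0.25 in place of 3.35, that of miR-1 0.73 in place of 1.93 and that of miR-133a 1.27 in place of 2.81. Back library 2 also had the highest miR-451 and miR-486 of all 12. Without it, miR-451 differed by 1.91 (adjusted p = 0.0172) and miR-486 by 1.90 (adjusted p = 0.0300), both still called, while miR-196a (2.51, adjusted p = 0.0831) and miR-3431 (1.14, adjusted p = 0.204) were not.

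**Figure D4:**
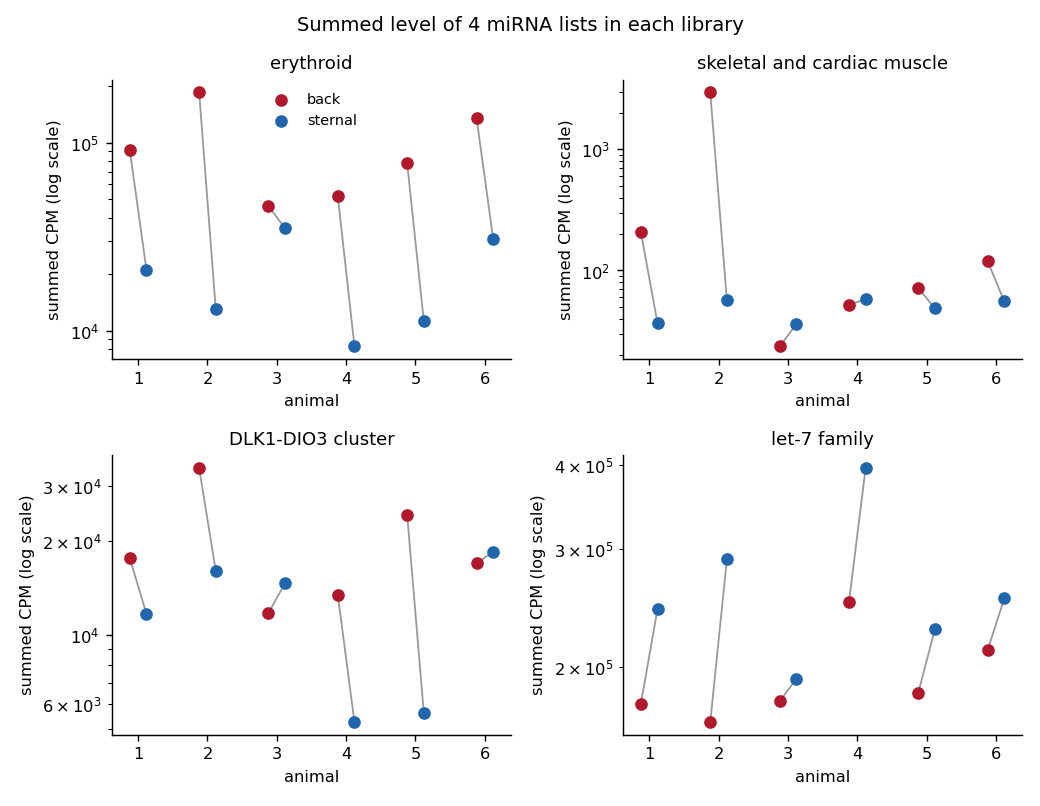
Summed CPM (log scale) of the red blood cell, muscle, DLK1-DIO3 and let-7 lists in each back (red) and sternal library (blue), by animal. The red cell sum, nearly all of it miR-451, is higher in back in every animal, and the let-7 sum is lower in every animal. The muscle sum of back library 2, at 2949 CPM, stands above the other 11.

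miR-1247-5p had the largest decrease among the called features. It was scarce in back fat, at 1.24, 3.24 and 4.50 CPM, against 5.32, 14.6 and 27.1 CPM in sternal fat. No back library reached the lowest sternal library. The log2 difference was -2.78 ± 0.51 (adjusted p = 0.00201, edgeR), and the call held in 18 of 18 leave-outs. It passed in 10 of 12 other ways of testing, with log2 differences from -2.93 to -1.90 and adjusted p up to 0.0869. The call was lost without the animal block and in the 12 libraries with the block. The other arm of the same hairpin, miR-1247-3p, was at 0 to 0.721 CPM in back and 0.475 to 2.71 CPM in sternal fat, with a difference of -2.55 ± 0.91 that did not pass (adjusted p = 0.274). Back fat had the lowest mean of miR-1247-5p of all depots, and omental fat, at 18.3 CPM, was above sternal fat, at 15.6 CPM.

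In humans and mice, the miR-1247 gene lies at the imprinted DLK1-DIO3 domain, close to DIO3. The large miRNA cluster of that domain is transcribed from the maternal chromosome and is active in embryonic and mesenchymal tissues. Its members mostly had the opposite sign to miR-1247-5p: of 39 tested, 34 had positive differences, with a median of 0.52, where 356 of all 667 features were positive with a median of 0.05. None was called by edgeR, DESeq2 or limma (0 of 39), and 6 had an unadjusted p below 0.05, all higher in back. The clearest was miR-381, at 7.56, 13.4 and 28.3 CPM in back and 4.53, 6.67 and 11.6 CPM in sternal fat, higher in 6 of 6 animals (log2 difference 1.05 ± 0.40, adjusted p = 0.303, edgeR). miR-127, the most abundant member, was at 18175 CPM in back and 10885 CPM in sternal fat on average (0.71 ± 0.39, adjusted p = 0.536). The summed level of the cluster was higher in back in only 4 of 6 animals, at 11772 to 34235 CPM in back and 5263 to 18476 CPM in sternal fat. Most of this sum was miR-127, so it says little about the other members. Without back library 3 the median was 0.27, with 30 of the 40 members then tested positive. The members share transcripts and are not separate observations.

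miR-3431, a miRNA named in cattle whose function is not established, was at 521, 700 and 1099 CPM in back and at 137, 264 and 483 CPM in sternal fat, without overlap. Its log2 difference was 1.30 ± 0.33 (adjusted p = 0.0478, edgeR). The call was held in 5 of 13 other ways of testing, with adjusted p from 0.00316 to 0.148 across them. That call was held in 1 of 18 leave-outs only, the one without animal 6 (adjusted p = 0.0486), with differences of 1.04 to 1.47 and adjusted p up to 0.313, without animal 4. Back fat had the highest mean of the 6 depots, at 752 CPM, followed by inguinal fat, at 633 CPM.

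The candidate locus NC_059159.1_8293 was at 1325, 2454 and 3643 CPM in back and at 2907, 5330 and 7898 CPM in sternal fat, with a log2 difference of -1.24 ± 0.29 (adjusted p = 0.0342, edgeR). The ranges overlapped, and animal 2 differed little (log2 difference -0.08). The call was held in 10 of 13 other ways of testing and in 9 of 18 leave-outs. It was lost without animal 3, 4, 5 or 6, without back library 1, 3 or 5 and without sternal library 4 or 6, with adjusted p up to 0.104 (without animal 5). Sternal fat had its highest mean and pericardial fat, at 610 CPM, its lowest.

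A second locus, NC_059165.1_25340, was among the 5 most abundant features of the comparison and was lower in back in 6 of 6 animals, at 25580, 38033 and 53533 CPM in back and at 43268, 87717 and 131185 CPM in sternal fat. Its difference of -1.04 ± 0.28 was just outside the threshold (adjusted p = 0.0726, edgeR) and passed it in 7 of 18 leave-outs (without animal 1, back library 3, 5 or 6, or sternal library 1, 3 or 5). The other 4 of the 5 most abundant were let-7c, let-7i, miR-26a and another candidate locus, and 0 of the 5 was called by edgeR, while let-7i and NC_059165.1_25340 were called by DESeq2 and 0 by limma.

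The let-7 family, which restrains growth and insulin signalling and increases as tissues mature, was the most abundant miRNA family. Of 10 members tested, 9 had negative differences under TMM scaling, 10 under RLE scaling and 7 with library totals alone. The median was -0.36, and 3 members had an unadjusted p below 0.05, all lower in back. let-7i, the clearest, was at 38127, 43587 and 60808 CPM in back and at 46490, 65549 and 119042 CPM in sternal fat, lower in back in 6 of 6 animals (log2 difference -0.67 ± 0.21, adjusted p = 0.187, edgeR). The summed family was at 165838 to 249771 CPM in back and 192162 to 395201 CPM in sternal fat, lower in back in 6 of 6 animals. Summed as a single feature, 8 near-identical let-7 members differed by -0.50 ± 0.18 and did not pass (adjusted p = 0.318, edgeR). With all libraries, edgeR and limma called 0 members, and DESeq2 called let-7i and miR-98. In the leave-outs edgeR called let-7i in 2 of 18, without back library 6 and without sternal library 1.

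The clusters of miR-23, miR-27 and miR-24, of which miR-27 restrains the fat cell regulator PPARG, were mostly negative: 7 of 8 members, with a median of -0.59, and 1 had an unadjusted p below 0.05. The median was -0.31 without animal 6, with 5 of 8 negative, and -0.99 without animal 1. That was miR-23a, at 3388, 5736 and 10749 CPM in back and at 6035, 14884 and 22465 CPM in sternal fat (log2 difference -0.97 ± 0.37, adjusted p = 0.303, edgeR). None of the 8 was called by edgeR, DESeq2 or limma (0 of 8), and their sum was lower in back in 4 of 6 animals.

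The miR-424 and miR-503 cluster, which slows the cell cycle and is induced during muscle and fat cell differentiation, had the opposite sign. All 6 members tested were positive, with a median of 1.18, and 4 had an unadjusted p below 0.05. The cluster summed to 118 to 308 CPM in back and 76.0 to 238 CPM in sternal fat, higher in back in 6 of 6 animals. miR-424-5p was at 2.43, 6.66 and 11.0 CPM in back and at 0.386, 1.51 and 6.45 CPM in sternal fat (log2 difference 1.49 ± 0.47, adjusted p = 0.187, edgeR). With all libraries, edgeR and DESeq2 called 0 of the 6, and limma called miR-424-3p. In the leave-outs edgeR called miR-424-3p without animal 3 and without sternal library 3.

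Among miRNAs reported to favour fat cell formation, 13 of 24 tested were positive, with a median of 0.04. With all libraries 0 were called by edgeR or limma, while DESeq2 called miR-204. In the leave-outs edgeR called miR-204 without animal 2 and without sternal library 2, and miR-378c without animal 2. Unadjusted p-values below 0.05 were reached by miR-378b, miR-378c and miR-378d, relatives of the miRNA that lies within the mitochondrial co-activator gene PPARGC1B, with higher values in back, and by miR-204, which favours fat over bone in marrow stromal cells, with lower values. miR-204 was at 2129, 3105 and 6053 CPM in back and at 646, 11426 and 19983 CPM in sternal fat, lower in back in 5 of 6 animals (log2 difference -1.70 ± 0.55, adjusted p = 0.191, edgeR). miR-378d was at 10.2, 19.0 and 32.6 CPM in back and at 5.50, 8.05 and 14.5 CPM in sternal fat (1.11 ± 0.49, adjusted p = 0.414).

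Some well-known members of that list were measured tightly enough to bound their differences. miR-143 differed by 0.15, with a 95% interval from -0.50 to 0.81, and miR-103, which acts on caveolin and insulin sensitivity, by 0.23, with an interval from -0.31 to 0.77. A 2-fold difference lay outside both intervals.

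Of 15 miRNAs reported to restrain fat cell formation, 9 were positive, with a median of 0.35, and 2 had an unadjusted p below 0.05. Without back library 3 the median was -0.03, with 7 of 15 positive, and without sternal library 6 it was 0.006. One of the 2 was miR-224, at 701, 919 and 1156 CPM in back and at 206, 526 and 879 CPM in sternal fat, higher in back in 6 of 6 animals (log2 difference 0.83 ± 0.26, adjusted p = 0.187, edgeR). limma called it, and edgeR and DESeq2 called 0 of the 15. Of 16 miRNAs linked to brown and beige fat, 11 were positive, with a median of 0.14 that was -0.12 without back library 3, and the called one was miR-196a, which is in the HOX list as well.

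**Figure D5:**
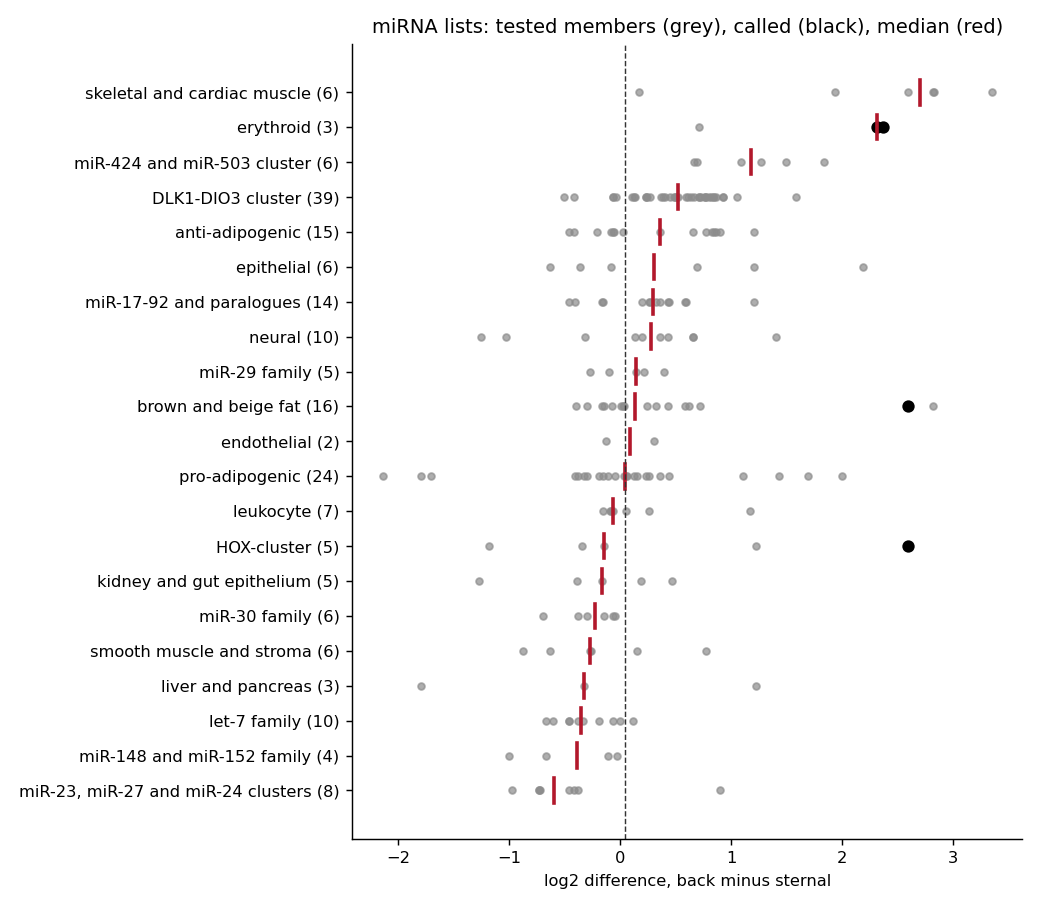
log2 differences of back minus sternal fat for the tested members of 21 miRNA lists (number tested in parentheses), with called members in black, the list median as a red bar and the median of all 667 features as a dashed line. The red cell list has 2 called members and the HOX list 1, while the 34 positive of 39 DLK1-DIO3 members and the 9 negative of 10 let-7 members lie to either side of the dashed line without a call.

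Markers of other tissues showed no call. Of 6 miRNAs of smooth muscle and connective tissue 2 were positive, with a median of -0.27, and of 6 epithelial miRNAs 3 were positive, with a median of 0.30. Of 10 neural miRNAs 7 were positive, with a median of 0.28, and of 5 kidney and gut miRNAs 2 were positive, with a median of -0.17. Across these 4 lists 0 members were called by edgeR, DESeq2 or limma, and 2 had an unadjusted p below 0.05, both lower in back. DESeq2 gave no adjusted p to 155 of the 667 features, and these count as not called. The summed epithelial level was 6.12 to 64.9 CPM in back and 5.92 to 28.9 CPM in sternal fat, with animal 6 the highest in both depots.

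Set beside the third subcutaneous depot, back fat minus inguinal fat gave 0 calls (0%) and 60 features with an unadjusted p below 0.05 (9%), and sternal minus inguinal fat gave 2 calls (0.3%) and 86 such features (12.9%), all by edgeR with the same spread. The 2 called were miR-196a (log2 difference -4.40 ± 0.70, adjusted p = 0.000428) and miR-381 (-1.85 ± 0.41, adjusted p = 0.0281). For miR-196a the back minus inguinal difference was -1.81 ± 0.64 (adjusted p = 0.403). For miR-451 the differences were 1.57 ± 0.40 in back minus inguinal fat (adjusted p = 0.258) and -0.80 ± 0.38 in sternal minus inguinal fat (adjusted p = 0.382). These contrasts share libraries with the back and sternal comparison and with each other.

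The number of calls differed between fits. The 18 subcutaneous libraries with the block gave 6 calls, with miR-10a among them and miR-3431 not. With the 12 libraries alone and the animal as a block, 518 features were tested and 0 were called by edgeR, although 53 had an unadjusted p below 0.05, and miR-451, miR-486, miR-196a and miR-1247-5p then shared an adjusted p of 0.0869. DESeq2 called 19 features in all 36 libraries, and limma called 9. One of the 12 libraries, back library 4, carries a letter A in its name where the other 11 carry B. With the letter as a covariate 5 of the 6 calls remained and miR-3431 was lost (adjusted p = 0.0639).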

How the data were processed

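Small RNA was sequenced from 36 adipose libraries, 6 depots of 6 buffaloes. Extraction used the RNeasy Lipid Tissue Mini Kit and library construction the TruSeq RNA LT kit v2, per the labels' protocols. The authors deposited whole-number counts per feature and library, not normalized. The deposited RPM values equal the count divided by the library total, scaled to 1000000. The submitters' processing notes list DESeq2 1.24.0, with no role. For the genome build, miRNA caller and aligner, names were not given in the sources used here, so no coordinates are printed. A row with no name, which had 0 counts, was removed.

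Counts were tested in R 4.3.3 with edgeR 4.0.16 (robust glmQLFit, glmQLFTest, two-sided) with TMM factors, filterByExpr (minimum count 10), 1 coefficient per depot and the animal as a block in all 36 libraries (25 residual degrees of freedom), with Benjamini-Hochberg adjustment over the 667 features tested. The pairs come from the labels, which give each buffalo a number. Back and sternal libraries of an animal deviated from their depot means with an average correlation of 0.182 (4 of 6 pairs above 0.1). For libraries of different animals the average was -0.036. Deviations from a depot mean cancel out over its animals, so this second value nearly follows from the first and is no separate check. No 2 libraries of a depot agreed within sampling noise (smallest chi-square per degree of freedom 1263). The SE is the size of the log2 difference divided by the square root of F. CPM is TMM-scaled, and an animal's log2 difference uses a prior count of 2. Counts limit precision at low levels.

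Named features were called ones with at least 10 CPM in the higher depot that moved one way in 5 or more of 6 animals, every tested HOX, red cell and muscle list member and the 5 most abundant features. Other list members were named after their values were seen. The members and the 21 lists were chosen with earlier results of these data known. Alternatives were other scaling factors and filters, no block, fewer libraries, DESeq2 1.42.0, limma 3.58.1 on log2(RPM + 1) and on log2(RPM + 0.25), the library letter, summed near-identical miRNAs and each animal or library left out. In a single draw of simulated counts with 644 features, this fit called 6.06% of the 66 features changed 1.5-fold. It called 13.8% of the 65 changed 2-fold and 68.2% of the 66 changed 4-fold, with 3 false calls among 447 unchanged features. How many features change was set in the simulation and is not known in the data. With fewer changed features the adjustment is stricter, and these percentages could be lower.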

Additional observations from a re-analysis of the deposited data

Results flagged for a closer look

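In 86 groups of 6 libraries (22 named features and 21 list sums, in either depot), 4 (4.65%) held a library far from the other 5. Chance gives about 1 in 20, so the count was near that share. Back library 4 was high in miR-499, a miRNA of heart and slow muscle, at 28.9 CPM. Back library 6 was high in the summed epithelial miRNAs, at 64.9 CPM, and low in the summed miR-424 and miR-503 cluster, at 118 CPM, where the other 5 back libraries had 243 to 308 CPM. Sternal library 1 was high in the summed miR-30 family, at 21445 CPM, where the sternal median was 3251 CPM. The muscle sum of back library 2, described with the muscle miRNAs, was not among these 4: on the log2 scale it did not meet the rule.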

How the results depend on the processing

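The 6 called features kept their direction in all 184 alternative values, and 61 of these missed the threshold. The 16 named features that were not called gave 476 alternative values, of which 25 passed and 11 changed sign. The number of calls (6, 4 higher and 2 lower) changed as follows. No replicate block gave 2 calls, 2 higher and 0 lower. The 12 libraries alone gave 0 calls with the replicate block (0 higher and 0 lower) and 3 without it (2 higher and 1 lower). DESeq2 gave 19 calls, 9 higher and 10 lower, with 155 features left without an adjusted p. limma gave 9 calls, 7 of them higher, with a pseudocount of 1 and 10 calls, 8 of them higher, with 0.25. RLE factors gave 2 higher and 4 lower, so that 33.3% of calls in place of 66.7% were higher, and moved the median of all features to -0.06 in place of 0.05. A mean of at least 10 CPM gave 8 calls, 5 higher and 3 lower, and the 18 subcutaneous libraries gave 6, 3 higher and 3 lower. No filter on low counts gave 4 calls, 2 higher and 2 lower, the letter as covariate 5, 3 higher and 2 lower, and summed near-identical miRNAs 5, 2 higher and 3 lower. Each animal or library left out gave 3 to 8 calls, 2 to 4 higher and 1 to 6 lower. Some medians also depended on single libraries or settings: the miR-30 median was -0.22 and ranged from -0.72 to 0.30, the HOX median from -0.37 to 0.55, the DLK1-DIO3 median from 0.27 to 0.65, the miR-23, miR-27 and miR-24 median from -0.99 to -0.29 and the median of miRNAs that restrain fat cell formation from -0.03 to 0.56. The medians of the white cell, endothelial, epithelial, neural, kidney and gut, liver and pancreas, fat-promoting, brown and beige, miR-17-92 and miR-29 lists also took both signs. The cause was not tested. Depth differed little between depots, and at these replicate numbers most 2-fold changes would be missed.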

Other observations

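miR-26a and miR-26c, which are nearly identical in sequence, split the libraries by name and not by depot. miR-26a made up 88.9% to 97.1% of the pair in 6 libraries, 3 from the back and 3 from the sternum, and 6.09% to 16.1% in the other 6, again 3 from either depot. The single miR-26a difference was -0.66 ± 0.94 (adjusted p = 0.875, edgeR), and that of the pair summed was -0.29 ± 0.20 (adjusted p = 0.704), at 107877 ± 35165 CPM in back and 127932 ± 28204 CPM in sternal fat (SD, n = 6 each). The cause of the split was not tested.

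miR-25, from the miR-106b cluster, was at 1950, 2172 and 3139 CPM (lowest, median, highest) in back and at 1338, 1529 and 1952 CPM in sternal fat, higher in back in 6 of 6 animals (log2 difference 0.58 ± 0.22, adjusted p = 0.303, edgeR). The miR-17-92 cluster and its paralogues, miR-25 among them, summed to 2722 to 4172 CPM in back and 2238 to 3025 CPM in sternal fat. The sum was higher in back in 6 of 6 animals. Most of it was miR-25, at 2331 CPM in back and 1566 CPM in sternal fat on average. The next most abundant member, miR-92a, was lower in back in 5 of 6 animals (619 and 715 CPM on average). Of the 14 members tested 10 were positive and 4 negative, and 0 were called by edgeR, DESeq2 or limma. miR-3432a, a miRNA named in cattle, was lower in back in 6 of 6 animals, at 68.4, 91.6 and 455 CPM in back and at 92.0, 803 and 1074 CPM in sternal fat (-2.06 ± 0.79, adjusted p = 0.303, edgeR). DESeq2 called miR-3432a, and edgeR and limma did not. These miRNAs were chosen after their values were seen.

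In 4 further lists 0 members were called by edgeR, DESeq2 or limma. All 6 tested members of the miR-30 family and all 4 of the miR-148 and miR-152 family had negative differences, with medians of -0.22 and -0.39, and in both families the sum was highest in sternal library 1, at 21445 CPM and 6543 CPM. That library set the sign of the miR-30 family: without it all 6 miR-30 members were positive, with a median of 0.27. The miR-148 and miR-152 family then had 2 positive and 2 negative members, and its median, -0.14, stayed negative. Of 5 miR-29 members 3 were positive, with a median of 0.14, and of 3 liver and pancreas miRNAs 1 was positive, with a median of -0.32. In these 4 lists 1 member had an unadjusted p below 0.05.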
